A study of Homo sapiens with 6 samples.

Results

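The 10 genes BBC3, PMAIP1, BAX, APAF1, FAS, TNFRSF10B, PIDD1, PERP, TP53I3 and AEN are targets of p53 that act in apoptosis, and they were taken by name from a table of 58735 genes. The cells were RKO, a long-established line from a human colorectal carcinoma with wild-type p53, and RNA was sequenced in 3 control libraries (Vector, which the labels call negative control) and 3 libraries of cells with LOC101927668 overexpression (LOC_OE). Both groups were stable lines made with a lentivirus and puromycin selection, and neither was given a drug, radiation or another stimulus of p53 in the labels. Nothing in the labels says that the replicates came from separate cultures, so p-values measure the spread between these libraries, which may be technical.

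The overexpressed long non-coding RNA was found as ENSG00000243004 on chromosome 7 and was covered by 1, 1 and 0 reads in Vector and by 231, 270 and 276 in LOC_OE. It reached 6.51 ± 0.851 FPKM (SD, n = 3) in LOC_OE, at least 103-fold higher than a Vector floor set at 3 reads in each library. The libraries held between 15008842 and 18410231 reads on genes. LOC_OE replicate 1 stood apart from its group, with correlations of 0.967 and 0.962 to the other LOC_OE libraries, where all other pairs within a group had 0.982 or 0.983. Of 8 colon epithelium markers, 4 were under 0.5 FPKM in every library and CDH1 was at 0 in all 6. Their summed FPKM was between 39.4 and 41.5 in Vector and between 48.4 and 89.6 in LOC_OE. The highest value was that of LOC_OE replicate 1, where KRT18 was at 67.5 FPKM, and without that library the highest was 48.9. The part of these markers in the results was not tested. Leukocyte, fibroblast and endothelial markers summed to at most 0.23 FPKM in any library.

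p53 is a transcription factor that is stabilised after DNA damage and other stress, and it binds response elements in or near its target genes. Its targets for apoptosis feed 2 routes. In the mitochondrial route, BH3-only proteins such as the products of BBC3 and PMAIP1 block survival proteins of the BCL2 family, BAX then opens the outer mitochondrial membrane, and released cytochrome c assembles with APAF1 into the apoptosome. In the other route, the death receptors FAS and TNFRSF10B recruit FADD and CASP8 at the cell surface. RKO cells have been a common line for work on p53 targets because their p53 is intact.

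Known p53 binding sequences were looked for in these genes, which were listed by name as targets of p53. The promoter windows searched ran from 250 bases before to 50 bases after each start site in RefSeq (GRCh38.p14), and 9 of the 10 genes, all but TNFRSF10B, had a window. Response elements outside these windows were not looked for, so a window without a match does not show that a gene lacks one. The p53 response element was read on both strands as 2 units of 10 bases with no gap and at most 2 mismatches in all. Each unit had to keep the C and the G at the ends of its core of 4 bases. The element was present in 100 of 35116 windows (0.285%) and in the windows of FAS and AEN. The FAS element lay on the plus strand at chr10:88991309-88991328, from 122 to 103 bases before the RefSeq start site of its window. The AEN element lay on the plus strand at chr15:88621306-88621325, from 34 to 15 bases before that of its window. In GENCODE version 29 the annotated genes start earlier, at 88990582 for FAS and 88621296 for AEN, so both elements lie inside the annotated genes. The capitals mark the core of 4 bases in each unit.
FAS: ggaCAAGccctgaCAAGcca
AEN: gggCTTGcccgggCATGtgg
TP53I3 carries a different p53-responsive sequence, a tandem repeat of TGTCC and TGCCC units in its 5′ exon. In GENCODE version 29 (GRCh38), 2 of 6 TP53I3 transcripts held 15 such units on the minus strand at chr2:24084343-24084417, of which the opening 30 bases are shown with the TGTCC units in capitals.
TP53I3: tgcccTGTCCTGTCCtgccctgcccTGTCC
None of the promoter windows searched held 4 or more of these units. These matches are descriptions of the letters and were searched for after the expression values had been seen. The windows of the p53 targets had a median GC content of 66% (range, 48 to 77.7%), where the median of all windows was 58.7%.

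Of the 10 p53 targets, 5 passed the test with lower values, namely BBC3, TP53I3, FAS, TNFRSF10B and AEN, and 1 passed it with a higher value, PMAIP1. BAX, APAF1, PIDD1 and PERP did not pass. A gene passed the test where limma on log2(FPKM + 1) gave a Benjamini-Hochberg adjusted p under 0.05 over 16061 tested genes. FPKM scales the fragments of a gene by library size and by gene length, here the merged length of all its exons. Comparisons of level between genes are approximate, since the transcripts expressed can be shorter than that. All fold changes below are differences on the log2(FPKM + 1) scale, LOC_OE minus Vector.

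Among all tested genes, 9.74% passed with lower values and 10.7% with higher values. The 5 lower of 10 p53 targets were a larger share than this background, and the 1 higher of 10 was close to it. These 10 targets were chosen with earlier results of these data known, so the shares describe the list and do not test it. With a fold change of at least 1.5 as well, 4 of the 10 were lower, against 5.58% of all tested genes. The 3 LOC_OE libraries lay wholly below the 3 Vector libraries for 8 of the 10 genes, against 20.9% of all tested genes, and wholly above them for 1, against 24.4%. BAX was the gene whose groups overlapped. The median log2 fold change of the 10 genes was -0.59, where that of all tested genes was 0.02. All 10 genes were over the minimum of 0.5 FPKM in every library, so none was tested through 1 group alone. In bulk RNA, fewer cells expressing a gene and less RNA per cell cannot be told apart.

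**Figure D1:**
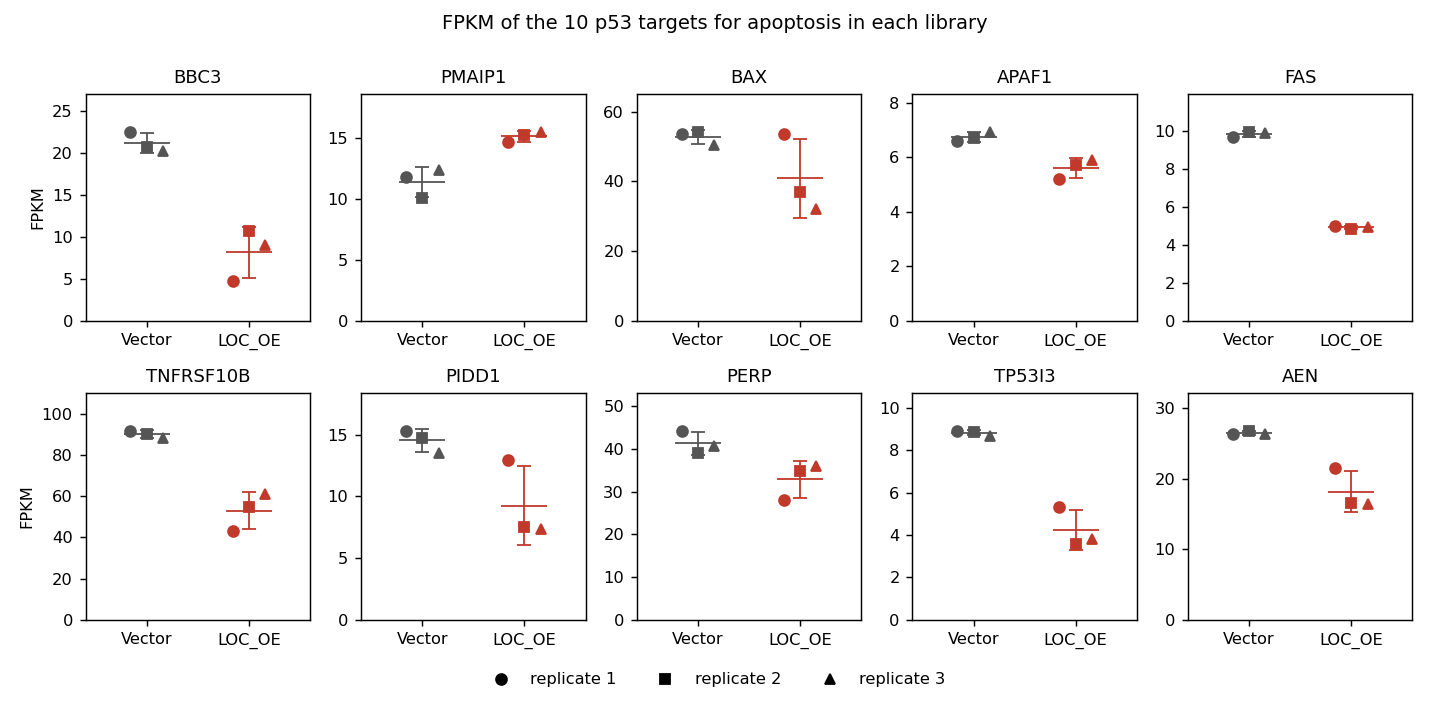
FPKM of the 10 p53 targets in the 3 Vector and 3 LOC_OE libraries. Each panel is a gene with its own axis from 0, points are libraries, long lines are means and bars are SDs (n = 3). FAS fell to between 4.84 and 4.96 FPKM in LOC_OE with little spread, while BBC3, BAX and PIDD1 were spread widely within LOC_OE.

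BBC3 encodes PUMA, a BH3-only protein that binds the survival proteins of the BCL2 family and is among the strongest inducers of apoptosis downstream of p53. Its fitted change was the largest of the list. Its FPKM was 22.5, 20.6 and 20.2 in Vector and 4.75, 10.6 and 9.05 in LOC_OE. Every LOC_OE library was below every Vector library, and LOC_OE replicate 1 was the lowest. The LOC_OE mean was 38.6% of the Vector mean, with a log2 fold change of -1.33 (SE 0.25, adjusted p = 0.0183). Without LOC_OE replicate 1 the log2 fold change was -1.03 (adjusted p = 0.00114). Without Vector replicate 1, 2 or 3 the adjusted p was 0.0725, 0.0780 and 0.0702.

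PMAIP1 encodes NOXA, a BH3-only protein that binds mainly MCL1. Its FPKM was 11.8, 10.0 and 12.4 in Vector and 14.7, 15.3 and 15.5 in LOC_OE, so that all LOC_OE libraries were above all Vector libraries. Its log2 fold change was 0.39 (SE 0.096, adjusted p = 0.0363). This call was the least stable of the 6. It was lost without any library other than LOC_OE replicate 1, with adjusted p from 0.0837 to 0.142, and under 5 of 11 other settings. Rescaling the libraries to the same sum of FPKM, which moved the median of all genes to -0.18, brought it to 0.14 (adjusted p = 0.421).

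The 2 BH3-only genes therefore moved in opposite directions, and their order reversed. BBC3 had 1.91, 2.05 and 1.64 times the FPKM of PMAIP1 in the Vector libraries and 0.324, 0.698 and 0.583 times in the LOC_OE libraries. This reversal held in every library of each group.

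BAX, the effector that forms pores in the outer mitochondrial membrane, had 53.6, 54.3 and 50.3 FPKM in Vector and 53.6, 36.9 and 32.1 in LOC_OE. LOC_OE replicate 1 lay within the Vector range and replicates 2 and 3 lay below it. The log2 fold change was -0.39, with a 95% interval from -0.84 to 0.052 (adjusted p = 0.178). Without LOC_OE replicate 1 it was -0.60 and passed (adjusted p = 0.0029), as it did under 3 of 11 other settings.

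APAF1, the scaffold of the apoptosome, had the lowest FPKM of the list in Vector and a small difference between groups. Its FPKM was 6.58, 6.69 and 6.93 in Vector and 5.19, 5.72 and 5.90 in LOC_OE. The groups did not overlap, and the log2 fold change was -0.23, with a 95% interval from -0.42 to -0.038 (adjusted p = 0.0897). APAF1 passed under 3 of 11 other settings and in 0 of the 6 fits with a library left out, where its lowest adjusted p was 0.0503 without LOC_OE replicate 1. When each gene was centred on the tested genes within 5 Mb, whose median log2 fold change around APAF1 was 0.16, its value was -0.35 (adjusted p = 0.0306).

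Both death receptors among the 10 genes fell. FAS, the receptor of FAS ligand, had 9.66, 9.97 and 9.88 FPKM in Vector and 4.96, 4.84 and 4.96 in LOC_OE. Its LOC_OE mean was 50.03% of the Vector mean, and the libraries within each group were almost level. Its log2 fold change was -0.87 (SE 0.069, adjusted p = 0.00307). FAS was the p53 target that passed in all 6 fits with a library left out and under all 11 other settings. It shares 380 exon bases with ACTA2 on the other strand, whose mean FPKM was 3.02 in Vector and 1.11 in LOC_OE, and the sources used here do not give whether counting used strand.

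TNFRSF10B, which encodes the TRAIL receptor DR5, was the most abundant of the 10 in both groups. Its FPKM was 91.7, 90.3 and 88.3 in Vector and 43.2, 54.9 and 60.8 in LOC_OE. The groups did not overlap, and LOC_OE replicate 1 was the lowest library. The log2 fold change was -0.77 (SE 0.13, adjusted p = 0.0146), and -0.63 (adjusted p = 0.00148) without LOC_OE replicate 1. Without Vector replicate 1, 2 or 3 the adjusted p was 0.0658, 0.0747 and 0.0659. TNFRSF10B was at 5.4, 5.35 and 5.74 times the FPKM of TNFRSF10A, the other TRAIL receptor with a death domain, in Vector, and at 2.24, 2.87 and 3.10 times in LOC_OE. TNFRSF10A itself had 16.4 ± 0.899 FPKM in Vector and 19.3 ± 0.245 in LOC_OE (SD, n = 3) and did not pass (log2 fold change 0.23, adjusted p = 0.0831), although it passed without LOC_OE replicate 1 (adjusted p = 0.0304) and was at -0.026 after rescaling to the same sum.

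PIDD1 is the scaffold of the PIDDosome, a complex with CRADD that activates CASP2. Its FPKM was 15.3, 14.8 and 13.5 in Vector and 12.9, 7.49 and 7.33 in LOC_OE. LOC_OE replicates 2 and 3 were far below Vector and replicate 1 only just below it. The log2 fold change was -0.64, with a 95% interval from -1.14 to -0.15 (adjusted p = 0.0718), and -0.88 (adjusted p = 0.000991) without LOC_OE replicate 1. It also passed under 4 of 11 other settings. PIDD1 shares 107 exon bases with the ribosomal protein gene RPLP2 on the other strand, whose mean FPKM was 365 in Vector and 416 in LOC_OE.

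PERP encodes a membrane protein of desmosomes that also acts in p53-dependent apoptosis. Its FPKM was 44.3, 39.2 and 40.6 in Vector and 28.0, 34.9 and 36.0 in LOC_OE, without overlap. Its log2 fold change was -0.33, with a 95% interval from -0.61 to -0.042 (adjusted p = 0.0987), and -0.22 (adjusted p = 0.0440) without LOC_OE replicate 1. It also passed under 2 of 11 other settings.

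TP53I3, a quinone oxidoreductase linked to reactive oxygen species in p53-dependent apoptosis, fell to 48.1% of its Vector mean. Its FPKM was 8.92, 8.87 and 8.70 in Vector and 5.32, 3.59 and 3.83 in LOC_OE. The Vector libraries were almost level and all LOC_OE libraries were below them, with replicate 1 the highest. This gave a log2 fold change of -0.92 (SE 0.13, adjusted p = 0.00933), and -1.06 (adjusted p = 0.000662) without LOC_OE replicate 1. Without Vector replicate 2 or 3 the adjusted p was 0.0585 and 0.0520.

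AEN, a nuclease that degrades nucleic acids during apoptosis, had 26.4, 26.8 and 26.4 FPKM in Vector and 21.5, 16.6 and 16.4 in LOC_OE. Every LOC_OE library was below every Vector library. This gave a log2 fold change of -0.53 (SE 0.12, adjusted p = 0.0266), and -0.65 (adjusted p = 0.000813) without LOC_OE replicate 1. The call was lost without each other library, with adjusted p from 0.0640 to 0.112, and the log2 fold change stayed between -0.65 and -0.47 in all 6 of these fits.

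**Figure D2:**
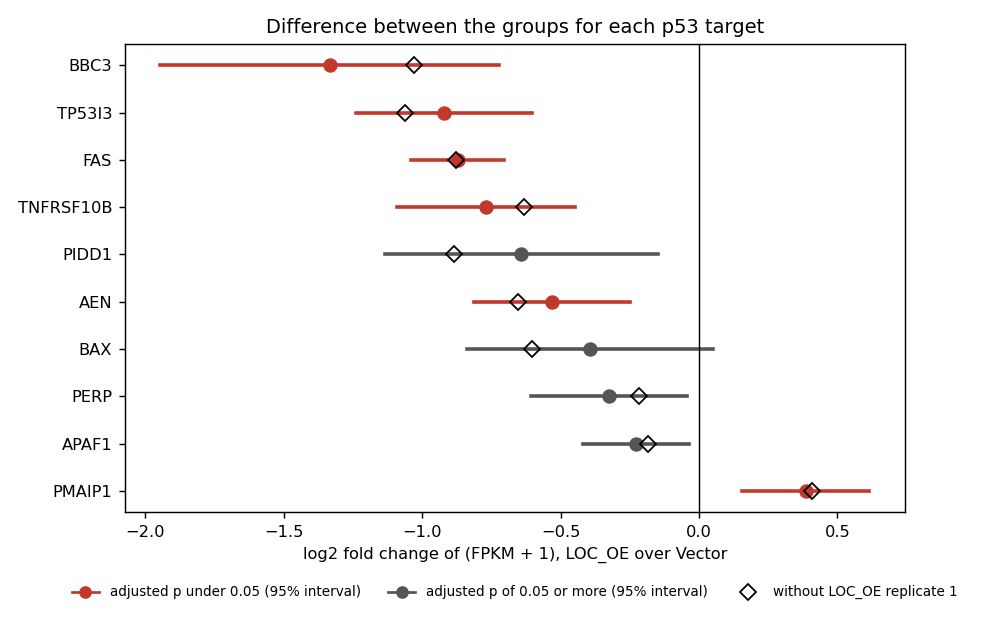
Log2 fold change of (FPKM + 1), LOC_OE over Vector, for each p53 target. Filled points with 95% intervals use all 6 libraries, red where the adjusted p was under 0.05, and open diamonds leave out LOC_OE replicate 1. All points other than that of PMAIP1 lie to the left of 0, PMAIP1 lies to the right at 0.39, and the interval of BAX crosses 0. The intervals are not adjusted for multiple testing, and those of APAF1, PIDD1 and PERP lie below 0 although these genes did not pass.

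LOC_OE replicate 1 did not lie to 1 side of the other LOC_OE libraries. It was the lowest of the 3 LOC_OE libraries for BBC3, PMAIP1, APAF1, TNFRSF10B and PERP, and the highest for BAX, PIDD1, TP53I3 and AEN. For FAS it was level with LOC_OE replicate 3, both at 4.96 FPKM. The median log2 difference of the 10 genes from their Vector means came to -0.43 in LOC_OE replicate 1 and -0.68 in both other LOC_OE libraries, where the median of all tested genes was between 0.01 and 0.03. Without that library 8 p53 targets passed with lower values and 1 with a higher value, and APAF1 remained the exception. Over all genes, the number that passed with lower values was then 2637 (16.8%) in place of 1565. The number with higher values was 3101 (19.8%) in place of 1712. Leaving out Vector replicate 1, 2 or 3 left 2, 1 and 1 p53 targets lower. The number of lower genes among all tested genes then dropped to 285 (1.85%), 148 (0.969%) and 215 (1.41%). Leaving out LOC_OE replicate 2 or 3 left 4 lower in both cases, where 5.85% and 7.07% of all tested genes were lower.

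**Figure D3:**
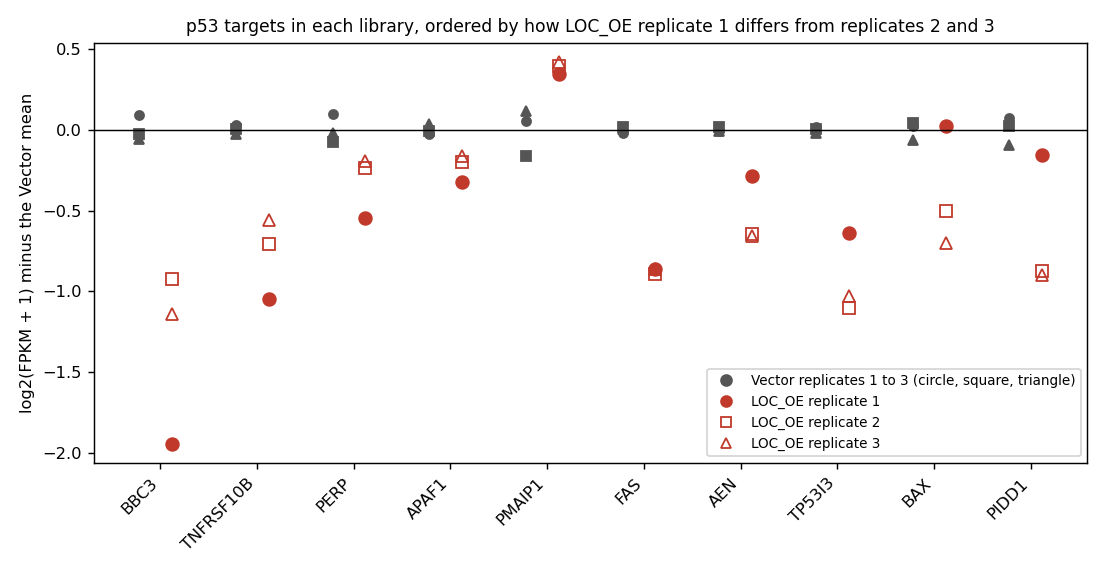
Log2(FPKM + 1) of each p53 target in each library, minus its Vector mean. Grey symbols are Vector libraries and red symbols LOC_OE libraries, with replicate 1 filled, and genes are ordered by how far that library lies below or above the other LOC_OE libraries. BBC3 is at -1.94 in LOC_OE replicate 1 and BAX at 0.02, the level of Vector, while FAS is near -0.87 in all 3.

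In Vector the genes stood in the order TNFRSF10B, BAX, PERP, AEN, BBC3, PIDD1, PMAIP1, FAS, TP53I3 and APAF1, from 90.1 to 6.74 FPKM, and no neighbours in that order overlapped in range. In LOC_OE the order was TNFRSF10B, BAX, PERP, AEN, PMAIP1, PIDD1, BBC3, APAF1, FAS and TP53I3, from 52.96 to 4.25 FPKM. There the ranges overlapped between TNFRSF10B and BAX, BAX and PERP, PIDD1 and BBC3, BBC3 and APAF1, and FAS and TP53I3. The 4 most abundant genes kept their places, BBC3 moved down from the fifth place to the seventh, and PMAIP1 moved up from the seventh to the fifth.

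The fold changes of the wider apoptosis pathway showed no common direction, although more partners passed as lower than as higher. Of 49 listed partners, 43 were tested, and 7 were lower, 2 were higher and 34 did not pass, with a median log2 fold change of -0.009. The 7 include BMF, which met the minimum level only through Vector, and with a mean FPKM of at least 1 as the minimum 6 were lower. By role, 1 of 8 BH3-only proteins and effectors was lower and 1 higher, 1 of 5 survival proteins was lower, 3 of 9 tested apoptosome, caspase and inhibitor genes were lower, and 1 of 2 PIDDosome partners was higher. With limma, 0 of the 3 tested partners listed as death ligands and receptors passed, and 0 of the 6 listed as adaptors and initiators. At an unadjusted p under 0.05 the counts were 1 (TNFRSF10A) and 3 (CASP8, RIPK1 and TRADD, the latter pair named after their values were seen), and with limma voom on the recovered reads they were 0 and 0. Of all tested genes, 36.5% were under that unadjusted p. The 7 lower of 43 were a larger share than the 9.74% of all tested genes, and the 2 higher were a smaller share than the 10.7%. The partner list was also chosen with earlier results of these data known. The groups did not overlap for 14 lower and 11 higher partners of the 43, against 20.9% and 24.4% of all tested genes.

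Of the 10 tested partners grouped as other p53-linked apoptosis genes, TP53INP1 and PHLDA3 fell. TP53INP1, a stress-induced cofactor of p53, had 19.95, 19.88 and 20.65 FPKM in Vector and 1.67, 4.48 and 5.06 in LOC_OE. On the log2(FPKM + 1) scale it was the largest decrease among the partners, with a log2 fold change of -2.25 (SE 0.30, adjusted p = 0.00799), and LOC_OE replicate 1 was again the lowest. PHLDA3, which competes with AKT for membrane lipids, had 21.4 ± 2.04 FPKM in Vector and 10.97 ± 1.296 in LOC_OE (SD, n = 3; log2 fold change -0.91, adjusted p = 0.00747). Both calls were lost without Vector replicate 2 (adjusted p = 0.0509 for each).

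Among the genes that oppose apoptosis, BCL2L1 and BIRC3 fell, while BCL2 and MCL1 did not pass. BCL2L1, which encodes BCL-XL, had 53.2, 53.9 and 47.7 FPKM in Vector and 23.8, 29.5 and 28.1 in LOC_OE, a log2 fold change of -0.91 (SE 0.11, adjusted p = 0.00654) that was lost without Vector replicate 2 (adjusted p = 0.0509). It shares 1424 exon bases with ABALON on the other strand, whose mean FPKM was 5.59 in Vector and 2.04 in LOC_OE. BIRC3, an inhibitor of apoptosis protein, had 8.98, 10.1 and 10.9 FPKM in Vector and 0.922, 2.36 and 2.54 in LOC_OE (log2 fold change -1.95, SE 0.24, adjusted p = 0.00698). The BIRC3 call stood without each library in turn. BCL2 was at 1.74 ± 0.144 FPKM in Vector and 1.73 ± 0.170 in LOC_OE, with a 95% interval of the log2 fold change from -0.25 to 0.23. MCL1 was the most abundant survival gene, at 277 ± 4.70 and 318 ± 18.6 FPKM. Its log2 fold change of 0.20 did not pass (adjusted p = 0.170) but did without LOC_OE replicate 1 (0.25, adjusted p = 0.0149).

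Set against BCL2L1, the pro-apoptotic targets went different ways. BBC3 had 0.423, 0.383 and 0.424 times the FPKM of BCL2L1 in Vector and 0.200, 0.360 and 0.322 times in LOC_OE. BAX had 1.01, 1.01 and 1.06 times the FPKM of BCL2L1 in Vector and 2.25, 1.25 and 1.14 times in LOC_OE. The ratio of BBC3 was lower and that of BAX higher in every LOC_OE library than in every Vector library. These ratios were not tested.

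Among the other BH3-only genes and effectors, BID rose and BMF fell. BID, whose product is cleaved by CASP8 and links death receptors to mitochondria, had 6.64, 6.44 and 6.14 FPKM in Vector and 17.2, 11.02 and 10.85 in LOC_OE (log2 fold change 0.89, SE 0.17, adjusted p = 0.0196). Its adjusted p was 0.0701, 0.0839 and 0.0792 without Vector replicate 1, 2 or 3. BMF was near the minimum level, at 1.22, 0.949 and 1.13 FPKM in Vector and 0, 0.263 and 0.237 in LOC_OE (log2 fold change -0.85, SE 0.14, adjusted p = 0.0132). The size of this change rests on the pseudocount of 1, since it was -2.37 with a pseudocount of 0.1, -2.72 as a ratio of means and -3.96 with limma voom on the recovered reads, the last 2 beyond the -2.43 and -2.59 of TP53INP1. BMF was tested through its Vector level alone and could not be tested without a Vector library. BAK1, the effector that acts beside BAX, had 41.7, 39.2 and 38.3 FPKM in Vector and 57.4, 29.9 and 32.0 in LOC_OE. As with BAX, LOC_OE replicate 1 was the highest LOC_OE library, and BAK1 did not pass with all libraries (log2 fold change -0.060, adjusted p = 0.881) but did without that library (-0.35, adjusted p = 0.0070).

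The caspases were divided. CASP2, the caspase that PIDD1 activates, rose from 14.7 ± 0.809 to 21.8 ± 4.0 FPKM (SD, n = 3; log2 fold change 0.52, adjusted p = 0.0398). CASP9, the initiator that APAF1 activates, fell from 3.35 ± 0.287 to 2.22 ± 0.248 FPKM (log2 fold change -0.44, adjusted p = 0.0293). HTRA2, a mitochondrial protease that counters inhibitors of apoptosis, fell from 11.1 ± 0.361 to 8.61 ± 0.447 FPKM (log2 fold change -0.33, adjusted p = 0.0298). It shares 483 exon bases with AUP1 and 625 with LOXL3, both on the other strand. The mean FPKM of AUP1 was 37.6 in Vector and 49.6 in LOC_OE, and that of LOXL3 was 1.57 and 1.4. These calls were lost without Vector replicate 2, with adjusted p of 0.145 for CASP2, 0.115 for CASP9 and 0.142 for HTRA2, and each was also lost without Vector replicate 3 (0.133, 0.0818 and 0.110) and without Vector replicate 1 (0.0988, 0.108 and 0.0988). They were further lost as follows, CASP2 without LOC_OE replicate 3 (0.0717), CASP9 without LOC_OE replicate 2 (0.0819) and HTRA2 without either (0.0748 and 0.0799). CASP8 and FADD, which form the complex below FAS and TNFRSF10B, had log2 fold changes of 0.29 (adjusted p = 0.0786) and -0.40 (adjusted p = 0.193). Without LOC_OE replicate 1 both passed, at 0.36 (adjusted p = 0.0158) and -0.61 (adjusted p = 0.0109).

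**Figure D4:**
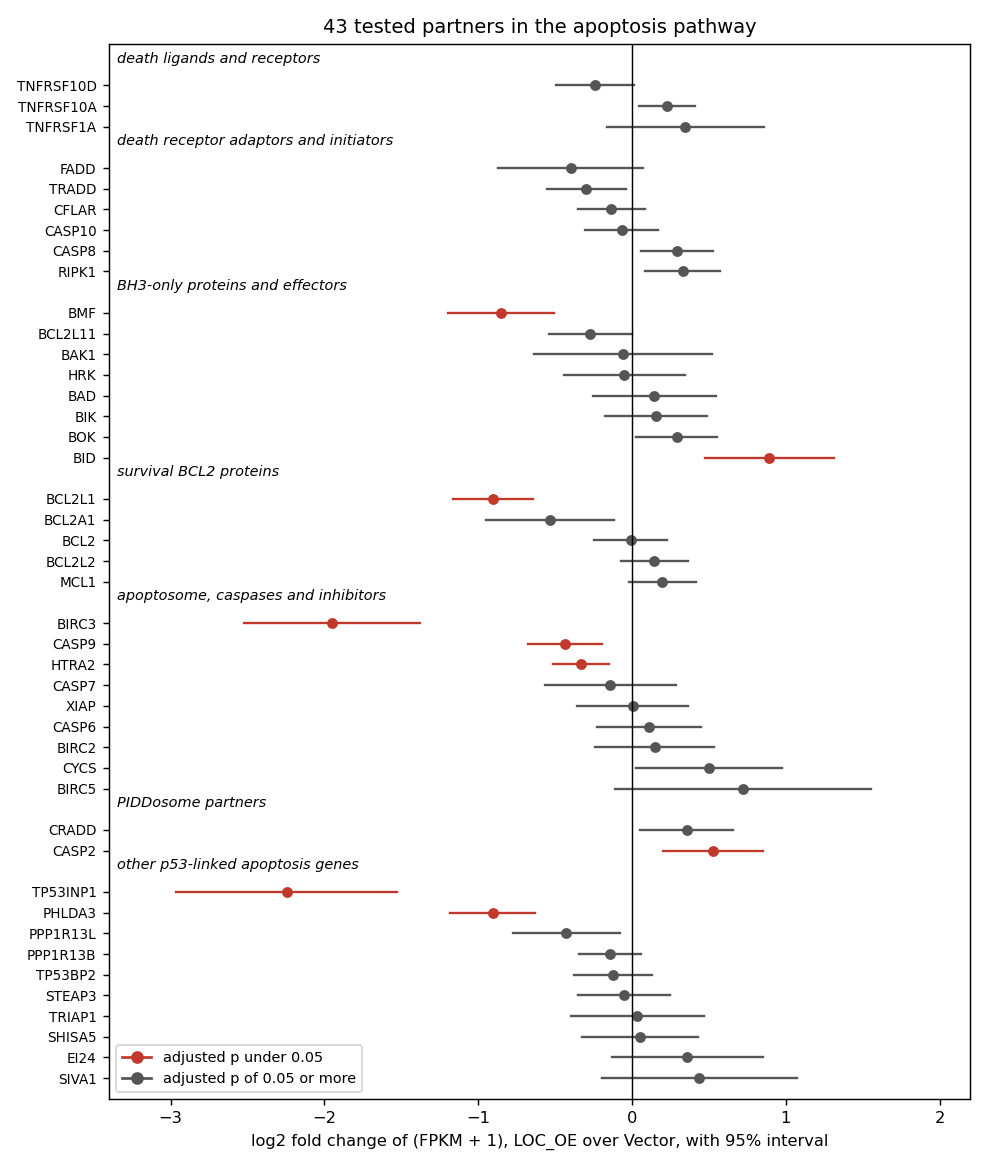
Log2 fold change of (FPKM + 1), LOC_OE over Vector, with 95% intervals for the 43 tested partners in the apoptosis pathway, grouped by role. Red marks an adjusted p under 0.05, while the intervals are not adjusted for multiple testing. TP53INP1 at -2.25 and BIRC3 at -1.95 lie farthest to the left, BID at 0.89 lies farthest to the right, and most intervals cross or lie close to 0.

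The position of the genes was also examined. BBC3 and BAX both lie on chromosome 19 and the other 8 genes on a chromosome each. The tested genes within 5 Mb of each p53 target had median log2 fold changes between -0.12 and 0.16, smaller than the change of each target itself. After centring on these neighbours, 6 targets were lower, with APAF1 added, and PMAIP1 no longer passed (adjusted p = 0.0521). Of all tested genes, 9.56% were lower after this centring.

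Outside the list and its partners, the 3 genes whose profile over the 6 libraries was most like the mean profile of the 10 p53 targets were HMGCS1, an enzyme of cholesterol synthesis (Pearson r = 0.9998), TNFAIP3, an inhibitor of NF-kappaB signalling (r = 0.9992), and FO393413.1 (r = 0.9992). HMGCS1 had 19.1, 17.5 and 18.4 FPKM in Vector and 7.44, 7.07 and 7.06 in LOC_OE. FO393413.1 was listed at 0 in all 3 LOC_OE libraries. These correlations describe 6 libraries that fall into 2 groups.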

How the data were processed

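RNA-seq of 6 RKO libraries was analysed, 3 Vector and 3 LOC_OE, grouped by their labels. A NEBNext Ultra kit and paired ends on a NovaSeq instrument were used by the authors, who deposited 1 table of FPKM values per gene and library. The submitters' processing notes name HISAT2 2.0.4, StringTie 1.3.0 and hg38, without their roles. All 58735 gene identifiers matched GENCODE version 29, 27612 genes were at 0 in every library, and there were 0 unused value columns.

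FPKM times merged exon length gave whole multiples of a step per library for 100% of values up to 1000 reads, within 0.05 of a read. This gave the reads behind each value, between 130 and 8875 for the 10 p53 targets. The library size used by the authors equalled the median-of-ratios size factor times the geometric mean of the totals. Reads cover counting error only. Whether counting used strand is not given in the sources used here, so overlapping genes can share reads.

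Expression was tested two-sided with limma 3.58.1 in R 4.3.3 on log2(FPKM + 1), using its variance trend, for genes of at least 0.5 FPKM in at least 3 libraries, adjusted by Benjamini-Hochberg over all tested genes. A permutation test of 3 against 3 libraries cannot go below p = 0.1. Alternatives tried were no filter, a mean FPKM of at least 1, a pseudocount of 0.1, 3 rescalings, no variance trend, array weights, a replicate block, leaving out each library, limma voom on the recovered reads, centring on neighbours within 5 Mb, unadjusted p-values and a fold change of at least 1.5. The script was tested on simulated data.

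The 10 targets, the partner and marker lists and the tests were chosen with earlier results of these data known. Named were all 10 targets, partners that passed (at most the 8 with the largest change in each direction), 9 partners whatever their result, and the 3 genes most like the targets. DIABLO, TNFRSF10C, TNFSF10, FASLG, TP53AIP1 and IGFBP3 were not tested because they were under the minimum level. Another gene of the pathway is not reported here. Plots used Python 3.11.15 with matplotlib 3.10.9.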

Additional observations from a re-analysis of the deposited data

How the results depend on the processing

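The direction of all 10 p53 targets stayed the same under every alternative, while the number past the test moved. The count of lower targets was 5 with all libraries, 9 after rescaling to the same sum of FPKM, 9 with array weights and 8 at an unadjusted p, and it lay between 1 and 8 when a library was left out. Of all tested genes, 19.7% were lower after that rescaling, 23.2% with array weights and 17.1% at an unadjusted p. With a library left out, between 0.969% and 16.8% of them were lower. The count of higher targets was 1, and 0 without the filter, after rescaling to the same sum, with quantile normalization, with the replicate block, after centring on neighbours and at a fold change of at least 1.5; it lay between 0 and 1 when a library was left out. Rescaling to the same sum shifted the median of all genes to -0.179 and changed the whole table from 1565 lower and 1712 higher genes to 3170 and 701. With limma voom on the recovered reads, 1787 genes were lower and 1955 higher, 6 and 1 of them p53 targets.

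Among the partners, 7 were lower with all libraries, 13 after rescaling to the same sum, 15 with array weights and 11 at an unadjusted p, with 1 to 12 when a library was left out. The count of higher partners was 2, and 10 with array weights, 8 at an unadjusted p and 1 without the filter, after rescaling to the same sum or at a fold change of at least 1.5, with 0 to 9 when a library was left out. Of all tested genes, 27.2% were higher with array weights and 19.4% at an unadjusted p, beside the shares of lower genes above. With a library left out, between 0.661% and 19.8% of them were higher. The 12 lower and the 9 higher partners both came without LOC_OE replicate 1, where 16.8% of all tested genes were lower and 19.8% higher. Signs under each setting were followed only for partners that passed and those named whatever their result, and not for the other tested partners. Of the partners followed, those that changed sign were BCL2, MCL1, TNFRSF10A and BAK1, none of which had passed. BCL2 was at 0.11 with quantile normalization and between -0.047 and 0.041 with a library left out. MCL1 was at -0.068 after rescaling to the same sum and -0.12 with quantile normalization. TNFRSF10A was at -0.026 after rescaling to the same sum. BAK1 was at 0.031 after centring on neighbours, 0.0009 as a ratio of means and between -0.35 and 0.11 with a library left out. CASP2 no longer passed without the filter, after rescaling to the same sum or after centring (adjusted p = 0.0747, 0.0687 and 0.108), nor did CASP9 without the filter, with quantile normalization or after centring (0.0711, 0.0562 and 0.0576). The cause was not tested.

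The labels do not state that the replicate numbers pair the libraries. Same-numbered deviations from the group means correlated at 0.111, -0.034 and 0.116, and 4 of 6 libraries correlated best with their own number. Deviations from a mean of 3 libraries are tied to each other, so these values cannot settle whether the libraries were paired. With the replicate block, 4 p53 targets and 5 partners were lower and 0 and 2 higher. Of all tested genes, 5.85% were then lower and 7% higher. AEN, PMAIP1, CASP9 and HTRA2 then had adjusted p-values of 0.0510, 0.0673, 0.0705 and 0.0697.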
